A study of Mus musculus with 10 samples.

Results

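The Slc26 genes encode anion transporters, and their best known member in the cochlea is Slc26a5, which encodes prestin. The 10 family members described here, Slc26a1, Slc26a2, Slc26a3, Slc26a4, Slc26a5, Slc26a6, Slc26a7, Slc26a9, Slc26a10 and Slc26a11, were taken by symbol from the 34590 genes counted in each library, whatever their values. Bulk RNA-seq was carried out on cells handpicked from mouse cochleae, with 2 libraries of each of 5 cell types, 10 in all. The 5 cell types were supporting cells (SCs) at P26, converted hair cells (cHCs) at P33, outer hair cells (OHCs) at P7 and at P22, and inner hair cells (IHCs) at P74. The ages of single libraries in the labels ran up to 1 day from these, with day 27 for SC library 12, day 21 for 1 of the OHC (P22) libraries and day 75 for 1 of the IHC libraries. The labels put the letter m before days 21, 74 and 75 and f before day 22, which may give the sex. The 2 OHC (P22) libraries thus differ in this letter as well as in age. Libraries are named by their number for SCs (12 and 11), cHCs (13 and 16) and OHCs (P7) (15 and 14), and by day of age for OHCs (P22) (days 21 and 22) and IHCs (days 74 and 75).

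Most Slc26 proteins exchange chloride for bicarbonate, sulfate, oxalate or iodide across a cell membrane. Prestin differs in that it works as a motor: it sits densely packed in the lateral membrane of OHCs and changes its area with membrane voltage, with intracellular chloride needed for its voltage sensing. This shortening and lengthening of the cell amplifies sound, and IHCs and SCs do not show it. A second member, pendrin (Slc26a4), is a chloride and bicarbonate exchanger of epithelial cells along the lateral wall and outer sulcus, and its loss causes deafness.

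SCs came from mice with Fgfr3iCreER and a Cre-dependent tdTomato reporter at Rosa26, given tamoxifen at P12 and P13, a driver that marks Deiters' and pillar cells. cHCs came from mice that carried the same alleles plus Atoh1-HA, a Cre-activated transgene for the hair cell transcription factor Atoh1, and alpha9 AChR-EGFP, a reporter driven by the promoter of the hair cell gene Chrna9. Only cells positive for both tdTomato and EGFP were picked as cHCs, so they were former Fgfr3-lineage cells in which a hair cell promoter was already active. OHCs (P22) came from heterozygous prestin-YFP knock-in mice, in which 1 copy of Slc26a5 encodes a protein with a fluorescent tag. The labels give the same knock-in for OHCs (P7), whereas the study's methods give an inducible Cre driven by prestin, the tdTomato reporter and tamoxifen given at P2 and P3. Under either description OHCs were picked by a reporter at or driven by Slc26a5, so its detection in OHCs is not independent of how the cells were chosen. IHCs came from Pval-Cre mice with a Cre-dependent tdTomato reporter, and Pvalb is also active in cochlear neurons. The labels name this reporter Ai9, which is not the allele name in the study's methods. Each library was made from a pool of handpicked cells, and the study gives their number only as a mean for each cell type. How many animals stood behind each library is not given in the sources used here, so p values measure only the spread between libraries, which may be technical.

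In 4 of the 10 records the file carried another sample's title, and each library was therefore read from the file that carried its own title. Depth was 15016129 to 40518766 counts on genes. Limits set from counts of 0 cover counting error only, whereas the SEs come from the fit and reflect the spread between libraries. Levels are CPM, counts relative to the library total, scaled with trimmed mean of M-values (TMM) factors, which were 0.930 to 1.199 except for 0.583 in the day 21 OHC (P22) library. SC, cHC and OHC (P7) libraries carried the numbers 11 to 16, and OHC (P22) and IHC libraries belonged to another series of numbers. For comparisons across these series, cell type and series cannot be told apart. Summed levels of 4 OHC marker genes (Ocm, Ikzf2, Chrna9 and Chrna10) were 9935 and 10797 CPM in OHCs (P22), 4439 and 4288 CPM in OHCs (P7), 855 and 862 CPM in cHCs, 267 and 119 CPM in IHCs, and 43.7 and 301 CPM in SCs. Of the cHC sums, Chrna9, whose promoter drove the EGFP used to pick these cells, made 670 and 648 CPM. Ocm made 4.98 and 1.91 CPM of them. In SC library 11, Ikzf2 made 296 of the 301 CPM. The 3 IHC markers (Slc17a8, Otof and Tbx2) summed to 7189 and 6177 CPM in IHCs and to 0.664 to 1185 CPM elsewhere. The 7 SC markers were at 1107 and 1767 CPM in SCs, 1065 and 814 CPM in cHCs, 863 and 684 CPM in IHCs, 88.4 and 299 CPM in OHCs (P7) and 16.3 and 4.80 CPM in OHCs (P22), where Sox2 had no counts. Of the IHC sums, Gjb2 made 611 and 468 CPM, above its 124 and 393 CPM in SCs. Fgfr3 (458 and 431 CPM) and Prox1 (247 and 293 CPM) were higher in cHCs than in SCs (167 and 312 CPM, 14.7 and 53.7 CPM). Sox2, Sox9, Gjb2, Gjb6 and Jag1 were lower in both cHC libraries than in both SC libraries. The 5 neuronal markers summed to 498 and 761 CPM in IHCs, 191 and 466 CPM in cHCs, 281 to 538 CPM in OHCs and 0.770 and 2.04 CPM in SCs, with Prph at 0 in all libraries. Nearly all of the sums outside SCs was Snap25, Nefm and Nefl, with Snap25 at 125 to 361 CPM in each of those libraries. Tubb3 was at most 1.68 CPM in any library. Macrophage, blood and glial markers summed to at most 20.2, 30.1 and 85.9 CPM in any library. The 4 fibrocyte and mesenchyme markers (Col1a1, Col1a2, Otos and Pou3f4) reached 262 CPM in OHC (P7) library 15, of which Col1a2 made 223 CPM, and 0.0266 to 49.5 CPM elsewhere. The 4 lateral wall epithelium markers (Kcne1, Kcnq1, Epyc and Bmp4) summed to 2661 and 2768 CPM in SCs, 922 and 4.98 CPM in cHC libraries 13 and 16, 247 and 7.86 CPM in OHC (P7) libraries 15 and 14, 12.9 and 3.37 CPM in OHCs (P22) and 69.6 and 186 CPM in IHCs. Nearly all of the sum in SCs was Epyc, at 2661 and 2767 CPM, with Kcne1 and Kcnq1 at or below 0.159 CPM and Bmp4 at 0. The part of these 2 lists in the results below was not tested.

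Slc26a5 lies on mouse chromosome 5, at chr5:21316473-21371422 on the minus strand of the mm9 build, with 20 exon blocks and 3072 exon bases. Slc26a1, which encodes a sulfate and oxalate exchanger, lies on the same chromosome at chr5:109098897-109104588, also on the minus strand, inside the gene Idua on the plus strand. These were the only members called by a joint test of the 5 cell types, and the 250 bases upstream of their RefSeq starts (GRCm38.p6 build, the more upstream of 2 for Slc26a1) are shown because both were high in mature OHCs. In these stretches the 6-letter E-box CANNTG, the kind of site bound by Atoh1 and other basic helix-loop-helix factors, is in capitals. It reads the same on both strands.
Slc26a5 (chr5:21865605-21865854, minus strand): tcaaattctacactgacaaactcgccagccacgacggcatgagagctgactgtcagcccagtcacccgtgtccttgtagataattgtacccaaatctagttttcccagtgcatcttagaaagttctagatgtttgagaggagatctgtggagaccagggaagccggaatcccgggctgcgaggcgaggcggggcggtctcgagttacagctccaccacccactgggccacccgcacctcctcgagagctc
Slc26a1 (chr5:108675366-108675615, minus strand): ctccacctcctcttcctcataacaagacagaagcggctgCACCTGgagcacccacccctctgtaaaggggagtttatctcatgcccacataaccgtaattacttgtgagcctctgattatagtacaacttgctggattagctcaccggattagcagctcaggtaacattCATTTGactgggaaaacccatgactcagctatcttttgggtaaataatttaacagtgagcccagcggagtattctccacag
The Slc26a5 stretch held no CANNTG and the Slc26a1 stretch held 2, beginning 211 and 81 bases upstream of the start. The RefSeq table gives Slc26a1 another start, whose 250 upstream bases (chr5:108674797-108675046, minus strand) also held 2, beginning 156 and 47 bases upstream. Of all 32851 starts in the RefSeq table, 66.2% had at least 1 CANNTG in the same 250 bases. A match of letters is a description, and neither its presence nor its absence says whether a factor binds. The RefSeq table held 8 starts for 7 of the 10 members, and the starts of Slc26a4, Slc26a6 and Slc26a10 also had no CANNTG in this window, while those of Slc26a3 and Slc26a9 had 2 each.

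The first question was in which cells Slc26a5 was detected and at what level. In OHCs (P22) it stood at 3789 and 2749 CPM (42975 and 65280 counts), and in OHCs (P7) at 1061 and 1094 CPM (15804 and 40117 counts). In cHCs it stood at 97.6 and 23.4 CPM (2294 and 922 counts). IHCs had 1.31 and 0.859 CPM (39 and 25 counts) and SCs 0.755 and 0.531 CPM (17 and 20 counts). The 5 cell types thus formed an order without overlap, from SCs through IHCs, cHCs and OHCs (P7) to OHCs (P22). In a single edgeR quasi-likelihood model of all 10 libraries, Slc26a5 differed among the 5 cell types with a false discovery rate (FDR) of 3.21e-05 by a joint F-test. The joint test called 2 of the 6 members tested, Slc26a5 and Slc26a1, and 7.81% of all 16891 genes tested.

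**Figure D1:**
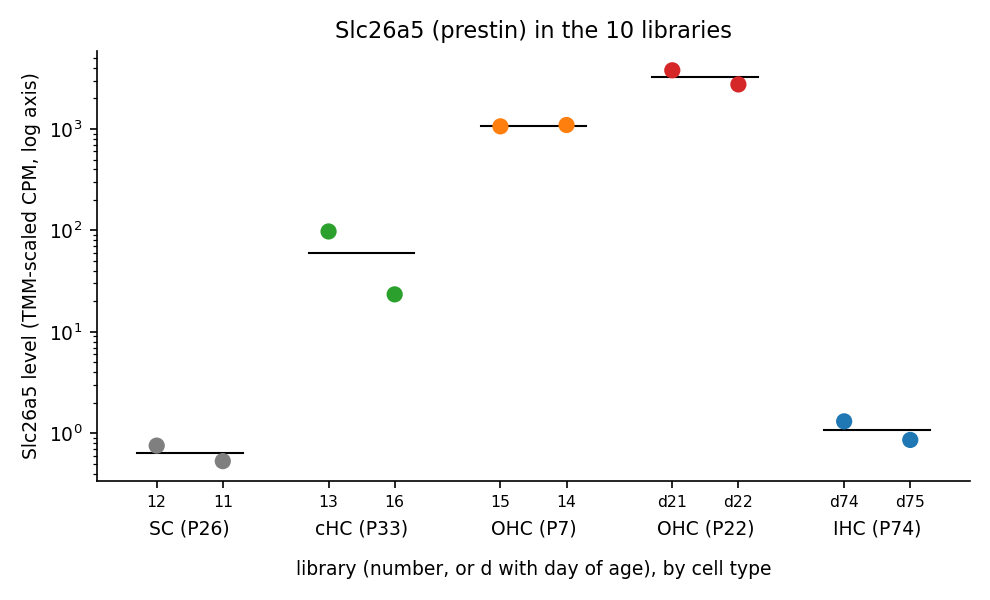
Slc26a5 level in TMM-scaled CPM (vertical log axis) in each of the 10 libraries, grouped by cell type on the horizontal axis; points are libraries and horizontal lines are the means of 2 libraries. OHCs (P22) sit at 2749 and 3789 CPM, cHCs at 23.4 and 97.6 CPM, and SCs and IHCs between 0.531 and 1.31 CPM.

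cHCs were compared with SCs to ask what changed when SCs were converted. Slc26a5 rose in cHCs, by 6.56 ± 0.74 (SE, n = 2 libraries each) on the log2 scale (94.1-fold, edgeR FDR = 0.000818), and each cHC library was above each SC library. It was the only 1 of 6 tested members called, where 1.84% of all genes tested were called. The 2 cHC libraries were themselves far apart: the log2 fold change was 5.18 without cHC library 13 and 7.25 without cHC library 16, called in both cases. The call was lost with limma-voom (log2 fold change 6.02, FDR = 0.0911) and in a fit of only SCs and cHCs (FDR = 0.0782).

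OHCs (P7) had 10.71 ± 0.87 log2 units more Slc26a5 than SCs (1676-fold, edgeR FDR = 5.37e-05). This again was the only 1 of 6 tested members called, against 3.41% of all genes. OHCs (P7) also exceeded cHCs, by 4.15 ± 0.65 log2 units (17.8-fold, edgeR FDR = 0.0281), the only 1 of 6 members called where 0.343% of all genes were. Both OHC (P7) libraries lay above both cHC libraries. The second difference was 5.53 without cHC library 13 and 3.46 without cHC library 16, and it did not pass the threshold when only these 2 cell types were fitted (FDR = 0.0850). These 3 cell types share 1 series of library numbers.

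OHCs (P22) had 5.76 ± 0.70 log2 units more Slc26a5 than cHCs (54.0-fold, edgeR FDR = 0.00343). Among the 6 tested members it was the only 1 called in this comparison, in which 3.18% of all genes were called. The difference was 7.12 without cHC library 13 and 5.06 without cHC library 16. In bulk samples, fewer cells with the transcript and less transcript per cell cannot be told apart. SC markers summed to 1065 and 814 CPM in cHCs and to 16.3 and 4.80 CPM in OHCs (P22). Of the 814 CPM in cHC library 16, Fgfr3 made 431 CPM and Prox1 293 CPM. Sox2, Sox9, Gjb2 and Gjb6 were at 1.73 to 16.0 CPM in that library. The part of the SC markers in the difference was not tested.

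Between the ages of OHCs, Slc26a5 was 1.60 ± 0.59 log2 units higher at P22 than at P7 (3.03-fold), without overlap of the libraries. This did not pass the threshold (unadjusted p = 0.0197 and FDR = 0.275 with edgeR). None of the 6 tested members was called here, where 0.551% of all genes were called, and 2 members, Slc26a1 and Slc26a5, had an unadjusted p under 0.05. The FDR of Slc26a5 was 0.0167 with limma-voom and 0.0497 with edgeR without a filter on low counts. It was not called with DESeq2, with other scaling factors (RLE) or with a block for the form of the library title. TMM scaling mattered for the 2 mature libraries: before it, Slc26a5 took 0.221% of all gene counts in the day 21 library and 0.306% in that of day 22, against 0.105% and 0.107% in OHCs (P7).

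IHCs, the sensory cells that pass the signal to the nerve, had less Slc26a5 than OHCs (P22), with a log2 fold change of -11.55 ± 0.90 (2996-fold lower, edgeR FDR = 0.000926). It was again the only 1 of 6 tested members called, against 1.46% of all genes. The levels in IHCs were close to those in SCs: the difference of 0.76 ± 0.62 log2 units was not called (edgeR FDR = 0.550). Against cHCs, IHCs had a log2 fold change of -5.79 ± 0.71 (edgeR FDR = 0.00594). The 4 OHC markers summed to 267 and 119 CPM in IHCs, of which Ocm made 239 and 68.6 CPM, and whether the 39 and 25 Slc26a5 counts came from stray OHC RNA was not tested.

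Per kilobase of exon, Slc26a5 made up nearly all of the Slc26 transcripts of OHCs. Its share of the summed CPM per kb of the 10 members was 98.5% and 97.8% in OHCs (P7) and 97.7% and 98.6% in OHCs (P22). In cHCs the share was 82.4% and 66.9%, with Slc26a2 as the next member in both libraries. In SCs the share was 4.14% and 1.52%, and in IHCs 5.77% and 24.1%. Slc26a5 ranked between 14 and 52 among all genes by counts in the 4 OHC libraries, at 1627 and 5592 in the cHC libraries, and at 11588 or beyond in SCs and IHCs.

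**Figure D2:**
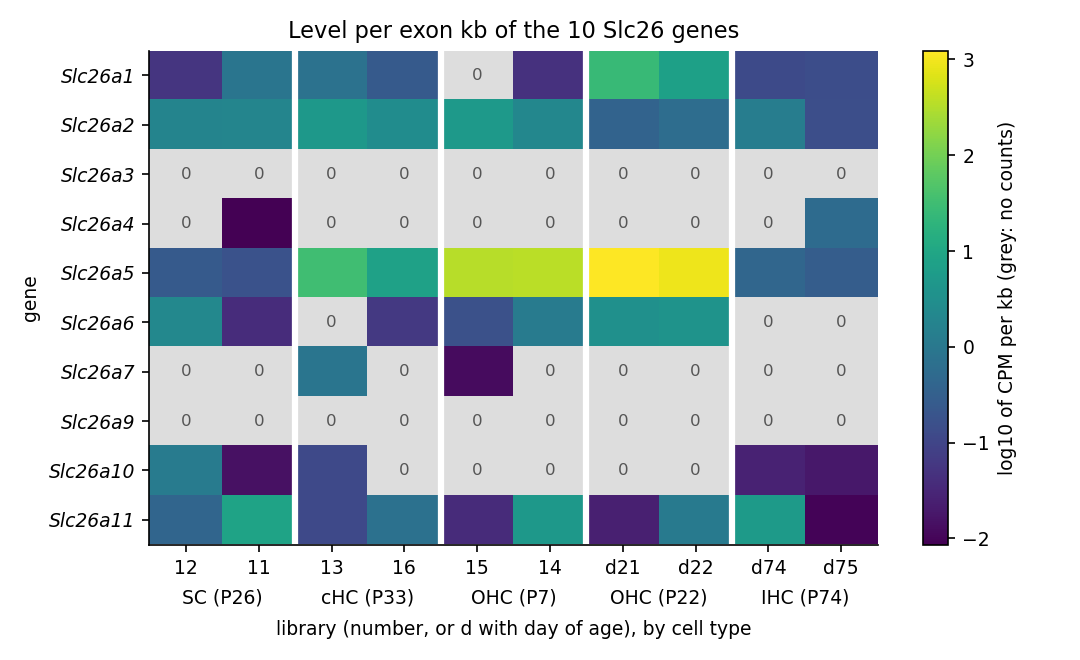
Levels of the 10 Slc26 genes (rows) in the 10 libraries (columns, by cell type), coloured by the log10 of CPM per kb of exon, with grey cells marked 0 where a library had no counts. Slc26a5 reaches 895 and 1233 CPM per kb in OHCs (P22), and Slc26a3 and Slc26a9 have no counts in any library.

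Slc26a1, which carries sulfate, was the only member besides Slc26a5 called by the joint test of the 5 cell types. It stood at 102 and 29.1 CPM in OHCs (P22), with 1158 and 690 counts. It stood at 0 and 0.191 CPM in OHCs (P7), 3.11 and 1.02 CPM in cHCs, and 0.505 and 0.584 CPM in IHCs. The SC libraries had 0.222 and 3.59 CPM. Both OHC (P22) libraries were above all 8 others, and SCs overlapped cHCs and IHCs. OHCs (P7) lay below all other libraries, but OHC (P7) library 14 (7 counts) was close to SC library 12 (5 counts, 0.222 CPM). The unadjusted edgeR p values were 0.0414 against cHCs (FDR = 0.427) and 0.0450 against SCs. The joint F-test of the 5 cell types gave an edgeR FDR of 0.0325. This rested on the day 21 OHC (P22) library, without which the joint FDR was 0.259, and it was 0.0726 with a block for the form of the library title. No pairwise difference passed the threshold with edgeR: OHCs (P22) exceeded OHCs (P7) by 9.20 ± 2.25 log2 units (edgeR FDR = 0.108) and cHCs by 4.99 ± 1.85 log2 units (FDR = 0.180), and the log2 fold change of IHCs against OHCs (P22) was -6.90 ± 2.02 (FDR = 0.138). OHCs (P7) had a log2 fold change of -4.10 ± 1.81 against SCs (edgeR FDR = 0.255). The difference between the OHC ages was called without SC library 12 (FDR = 0.0464), with limma-voom (FDR = 0.0464) and without a filter on low counts (FDR = 0.00520). DESeq2 called it as well (FDR = 7.37e-08), together with the differences of OHCs (P22) from cHCs (FDR = 0.00245), of IHCs from OHCs (P22) (FDR = 1.40e-05) and of OHCs (P7) from SCs (FDR = 0.0405). The difference of IHCs from OHCs (P22) was also called without the filter (FDR = 0.0302).

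The kit does not keep the strand, and Slc26a1 shares 141 exon bases with Idua, so reads in the shared bases cannot be assigned to either. As Slc26a1 lies wholly inside Idua, reads from Idua introns could also be counted to it. Reads on no feature were 46.1 and 50.4% in OHCs (P22) and 26.5 to 41.8% in the other libraries. The part of such reads in the Slc26a1 counts was not tested. Idua, which encodes a lysosomal enzyme, stood at 37.1 and 10.6 CPM in OHCs (P22) and between 6.20 and 68.8 CPM in the other 8 libraries. OHCs (P22) thus lay within the range of the other cell types for Idua.

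Slc26a2, a sulfate transporter that supplies the sulfation of cartilage matrix and whose loss causes skeletal dysplasia, was detected in every library. It lies at chr18:61352573-61371266 on the minus strand in mm9. cHCs had 41.5 and 23.3 CPM, OHCs (P7) 42.5 and 17.9 CPM, and SCs 15.4 and 15.9 CPM. OHCs (P22) had 3.17 and 5.14 CPM, below all libraries of those 3 cell types. The 2 IHC libraries, at 11.1 and 1.27 CPM, lay on both sides of OHCs (P22). The log2 fold change of OHCs (P22) was -2.96 ± 1.32 against cHCs (unadjusted p = 0.0462 and FDR = 0.250 with edgeR) and -2.86 ± 1.31 against OHCs (P7) (FDR = 0.366), neither of which was called. With DESeq2 the difference from cHCs was called (FDR = 0.0459). The joint test gave an edgeR FDR of 0.334. Slc26a2 made 57.4% and 31.5% of the family's counts in SCs and 0.0814% and 0.184% in OHCs (P22), where Slc26a5 counts dominate the total.

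Slc26a11, which encodes a sulfate transporter linked to lysosomes, was high in 1 library and low in the other of every cell type. Its levels were 1.47 and 30.2 CPM in SC libraries 12 and 11, 0.425 and 2.57 CPM in cHC libraries 13 and 16, and 0.134 and 17.3 CPM in OHC (P7) libraries 15 and 14. They were 0.0882 and 3.96 CPM in the OHC (P22) libraries of days 21 and 22, and 19.9 and 0.0344 CPM in the IHC libraries of days 74 and 75. Every pair of cell types overlapped, and the joint test gave an edgeR FDR of 0.814. In the numbers 11 to 16, the higher library of each pair had the other form of title and the greater depth, 33162033 to 40518766 counts against 15016129 to 22597688, and the part of either in the split was not tested.

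**Figure D3:**
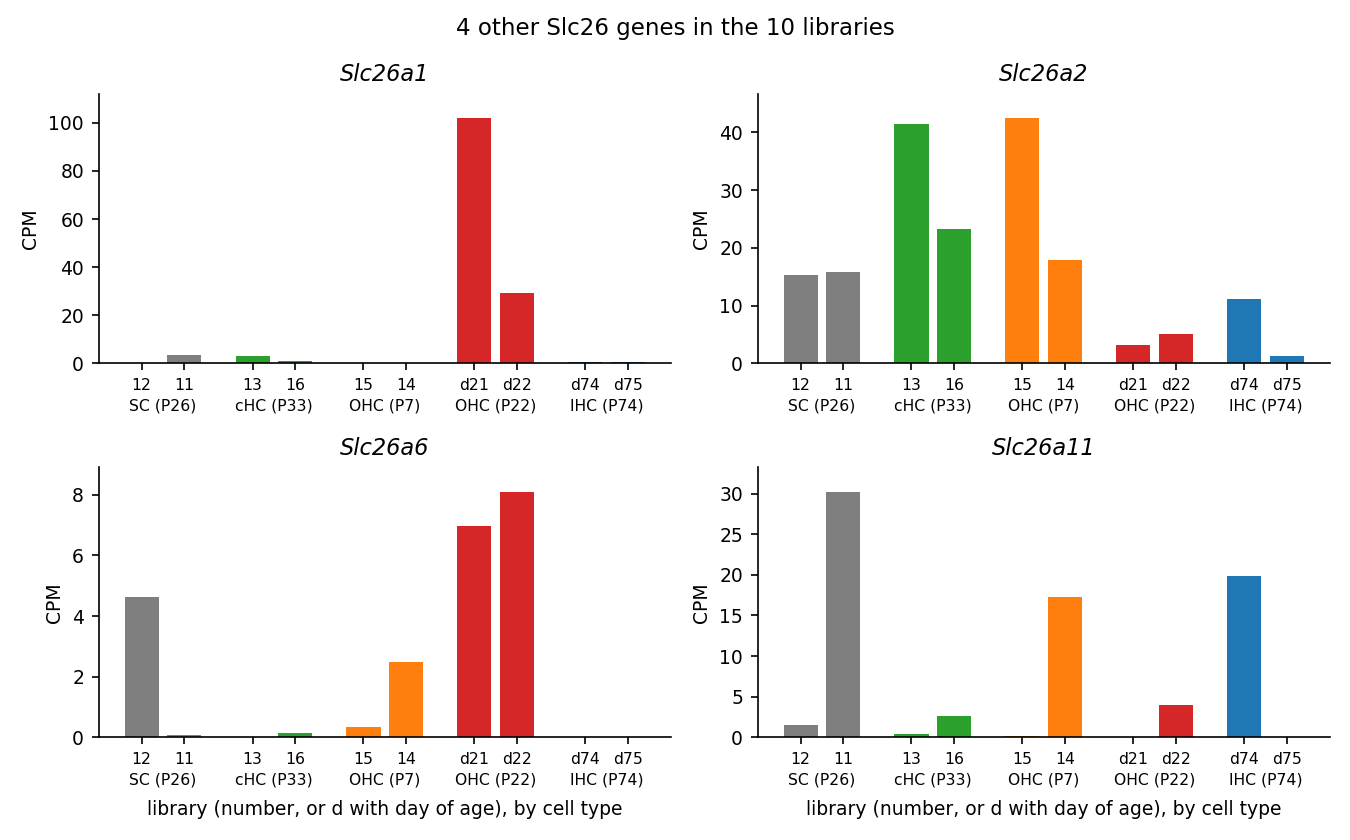
Levels in CPM (vertical axes from 0, a separate scale in each panel) of Slc26a1, Slc26a2, Slc26a6 and Slc26a11 in the 10 libraries, 1 bar per library and 1 colour per cell type. Slc26a1 is highest in both OHC (P22) libraries, at 102 and 29.1 CPM, whereas Slc26a11 is split between the 2 libraries of each cell type.

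Of the chloride, bicarbonate and oxalate exchangers, Slc26a6, an apical exchanger of kidney, gut and pancreas, was detected at low levels. OHCs (P22) had 6.97 and 8.09 CPM (79 and 192 counts) and OHCs (P7) 0.336 and 2.48 CPM. SCs had 4.62 and 0.0797 CPM, cHCs 0 and 0.127 CPM, and neither IHC library had a count. Both OHC (P22) libraries were above the other 8. Set against the limit of 3 counts per library, IHCs had at least 73.7-fold less Slc26a6 than OHCs (P22), but the difference was not called (unadjusted p = 0.0146 and FDR = 0.209 with edgeR), nor was that between OHCs (P22) and cHCs (6.73 ± 3.05 log2 units, FDR = 0.263). With DESeq2 both were called, with FDRs of 0.00373 and 0.0390. The joint test gave an edgeR FDR of 0.214.

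Slc26a4, encoding pendrin, did not pass the filter on low counts. It had 50 counts (1.72 CPM) in the day 75 IHC library, 1 count in SC library 11 and none in the other 8 libraries. Of 3 other genes of pendrin-expressing cells, the transcription factor Foxi1 and the proton pump subunit Atp6v1b1 had no counts in any library, and the subunit Atp6v0a4 had none in IHCs and at most 2.06 CPM elsewhere, in cHC library 16. In the same IHC library Bmp4, a gene of the lateral wall list, had 95 counts (3.26 CPM), against 4 counts in cHC library 13 and none in the other 8. The lateral wall markers summed there to 186 CPM, against 69.6 CPM in the day 74 IHC library, and the fibrocyte and mesenchyme markers to 49.5 against 8.42 CPM. Of the lateral wall sums, Epyc made 175 and 62.1 CPM. The part of both lists in the Slc26a4 counts was not tested. Slc26a7, a chloride and bicarbonate transporter of stomach and kidney, had 110 counts (4.68 CPM) in cHC library 13, 1 count in OHC (P7) library 15 and none elsewhere. The lateral wall sum was 922 CPM in cHC library 13 and 4.98 CPM in cHC library 16, of which Epyc made 919 and 4.34 CPM. Epyc was highest in SCs, at 2661 and 2767 CPM. The part of the lateral wall list in the Slc26a7 counts was not tested. Slc26a3, the chloride and bicarbonate exchanger of the intestine, and Slc26a9, a chloride transporter of stomach and airway, had no counts in any of the 10 libraries. A count of 0 allows up to 3 counts, or 0.074 CPM before TMM scaling in the deepest library and 0.2 CPM in the shallowest. In a fit without the filter, no comparison of Slc26a4 or Slc26a7 was called (edgeR FDR of 0.359 or more).

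Slc26a10, a member with little described transport, had 98 and 2 counts in SCs (4.35 and 0.0531 CPM), 10 and 0 in cHCs and 3 and 2 in IHCs. None of the 4 OHC libraries had a count. It shares 714 exon bases with B4galnt1, a glycosyltransferase gene on the other strand, which had 13.6 and 62.6 CPM in SCs and at most 143 counts in any other library, so the reads of the shared bases cannot be told apart. No comparison of Slc26a10 was called, and its joint test gave an edgeR FDR of 0.267.

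**Figure D4:**
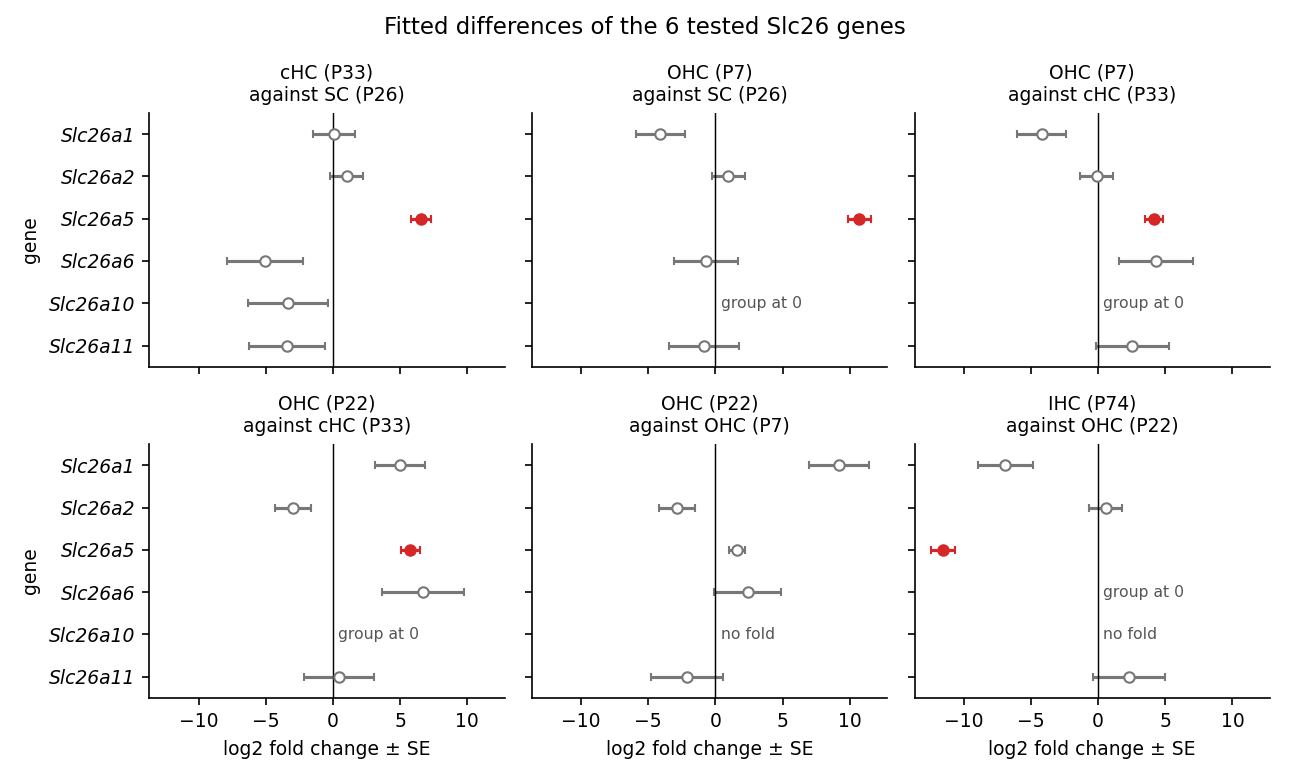
Fitted log2 fold changes (horizontal axes, points) with their SE (bars) for the 6 tested Slc26 genes in 6 comparisons of cell types, 2 libraries each. Filled red points passed an edgeR FDR of 0.05 over all genes tested, and fits against a group without counts are not drawn; Slc26a5 passed in all panels but OHC (P22) against OHC (P7), where it stood at 1.60.

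Over the 6 tested members, the median log2 fold change was -1.63 in cHCs against SCs, where that of all genes was 0.03. It was -0.79 (all genes 0.00) in OHCs (P7) against SCs, 1.22 (-0.09) in OHCs (P7) against cHCs and 2.72 (-0.19) in OHCs (P22) against cHCs. With groups without counts set to their limits, it was 1.60 (-0.04) in OHCs (P22) against OHCs (P7) and -6.20 (0.03) in IHCs against OHCs (P22), over the 5 members with a fold. The median of cHCs against SCs and the call of Slc26a5 had opposite signs, with 3 of the 6 members above 0 and 3 below. Those below (Slc26a6, Slc26a10 and Slc26a11) had SEs of 2.82 to 2.97 log2 units and were not called. Their counts were uneven in SC libraries 12 and 11: 104 and 3, 98 and 2, and 33 and 1138. The median therefore rests on poorly measured members.

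Genes of prestin's partners and regulators were then read in the same fit. The list held calmodulins, which bind prestin (Calm2 and Calm3), the sugar transporter Slc2a5, the spectrins of the cortical lattice under the lateral membrane (listed as Spna2 and Spnb2), the regulators Thrb, Gata3 and Ikzf2, and the calcium-binding protein oncomodulin (Ocm). All 9 were tested. In cHCs against SCs none was called by edgeR, where 1.84% of all genes were called. In this comparison 3 (Gata3, Calm3 and Ikzf2) had unadjusted edgeR p values of 0.00334, 0.0232 and 0.0413. In OHCs (P7) against SCs 2 were called higher (Ocm and Calm2) and none lower, against 3.41% of all genes called. Ocm was the only 1 called in OHCs (P7) against cHCs (0.343% of all genes) and in OHCs (P22) against cHCs (3.18%). Without a call, Ikzf2 was higher by 3.47 ± 0.91 and 3.54 ± 0.91 log2 units in these comparisons (edgeR FDR = 0.185 and 0.0635). Calm2 was higher by 1.79 ± 0.32 and 0.78 ± 0.32 (FDR = 0.0532 and 0.217). Others were lower without a call, such as Thrb, at -1.39 ± 0.73 and -1.99 ± 0.75 (FDR = 0.503 and 0.183). None was called between OHCs (P22) and OHCs (P7), against 0.551% of all genes. In IHCs against OHCs (P22) Calm2 was called higher, and Ocm and Ikzf2 lower, against 1.46% of all genes.

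The levels of Ocm in cHCs overlapped those in SCs, unlike those of Slc26a5. Ocm stood at 4.98 and 1.91 CPM in cHCs and 2.71 and 3.16 CPM in SCs, against 3400 and 3160 CPM in OHCs (P7) and 7562 and 9278 CPM in OHCs (P22). The difference of cHCs from SCs was 0.22 ± 0.57 log2 units (edgeR FDR = 0.914), and OHCs (P22) exceeded cHCs by 11.26 ± 0.86 (FDR = 0.000277). Whether the 2 genes differed in their change from SCs to cHCs was not tested. Ikzf2, a transcription factor of OHC identity, was at 62.8 and 22.6 CPM in cHCs and at 463 to 502 CPM in all 4 OHC libraries. In SC libraries 12 and 11 it was at 39.9 and 296 CPM. Its log2 fold change in cHCs against SCs was -1.98 ± 0.86 and was not called (edgeR FDR = 0.313).

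Chrna10, which with Chrna9 forms the acetylcholine receptor of OHCs, stood at 117 and 189 CPM in cHCs, between SCs (0.489 and 0.744 CPM) and OHCs (P7) (446 and 486 CPM). Chrna9 itself, whose promoter drove the EGFP used to pick cHCs, was at 670 and 648 CPM in cHCs, above the 131 to 405 CPM of OHCs. Atoh1 counts, which may include those of the transgene, were at 364 and 1812 CPM in cHC libraries 13 and 16, the same libraries in which Slc26a5 was at 97.6 and 23.4 CPM.

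**Figure D5:**
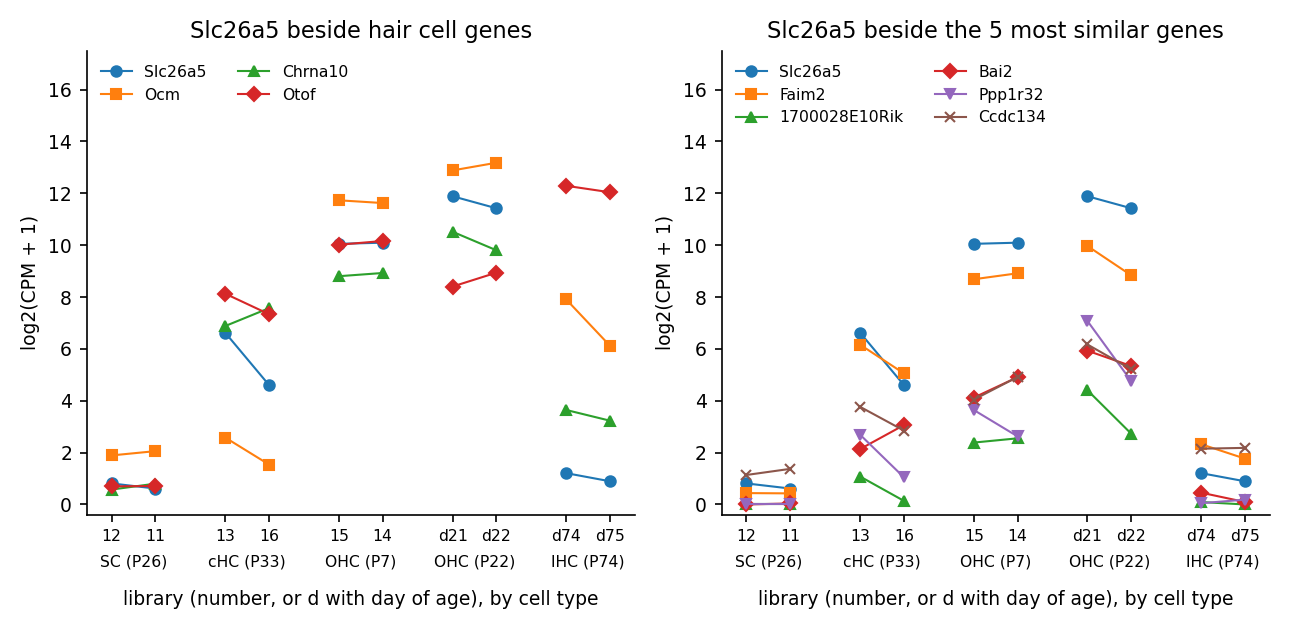
Levels as log2(CPM + 1) in the 10 libraries, by cell type, with lines joining the 2 libraries of a cell type. The left panel shows Slc26a5 with Ocm, Chrna10 and Otof and the right panel Slc26a5 with the 5 genes of most similar pattern; Ocm stays at 1.91 and 4.98 CPM in cHCs, where Slc26a5 is at 23.4 and 97.6 CPM.

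Other transporters and enzymes of chloride, bicarbonate and sulfate were counted in the same way. Over the 6 comparisons, 0.343 to 3.41% of all genes tested were called. At such shares, the lack of a call in a short list says little about that list. Of the 10 SLC4 bicarbonate transporters 7 were tested and none was called in any of the 6 comparisons, and of 18 chloride channel genes 13 were tested and none was called. Of the 9 SLC12 cation-chloride cotransporters 6 were tested, and only Slc12a5, a chloride extruder known from neurons, was called. It stood at 40.2 and 17.3 CPM in cHCs, 16.7 and 18.4 CPM in OHCs (P7) and 0.222 and 0.0266 CPM in SCs. It rose in cHCs against SCs (7.88 ± 1.69 log2 units, edgeR FDR = 0.0416) and in OHCs (P7) against SCs (7.17 ± 1.64, FDR = 0.0387).

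Carbonic anhydrases supply bicarbonate, and 10 of their 16 genes were tested. In OHCs (P7) against SCs Car7 and Car12 rose and Car13 fell. Car7, a cytosolic enzyme, stood at 106 and 190 CPM in OHCs (P7) and 236 and 258 CPM in OHCs (P22), against 5.87 and 0.102 CPM in cHCs and 0.178 and 0.212 CPM in SCs. It was the only 1 of the 10 called in OHCs (P22) against cHCs, higher by 6.38 ± 1.41 log2 units (edgeR FDR = 0.0341), and cHCs did not differ from SCs beyond the test's threshold. Car2, another cytosolic enzyme, was at 475 and 532 CPM in OHCs (P22) and 19.6 and 24.8 CPM in IHCs, a log2 fold change of -4.50 ± 0.95 (edgeR FDR = 0.0438). No carbonic anhydrase was called in cHCs against SCs, in OHCs (P7) against cHCs or between the OHC ages.

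Of 8 genes of sulfate activation and transport 6 were tested. The 1 call was Bpnt1, a phosphatase of the sulfation pathway, which was at 61.7 and 54.5 CPM in OHCs (P7) and 2.31 and 4.25 CPM in SCs (4.14 ± 0.90 log2 units, edgeR FDR = 0.0304). In cHCs it stood between them, at 14.7 and 12.4 CPM. Of the 3 pendrin cell genes only Atp6v0a4 was tested, and it was not called.

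The 5 genes whose pattern across the 10 libraries was most like that of Slc26a5 were Faim2 (Pearson's r = 0.978), 1700028E10Rik (0.977), Bai2 (0.971), Ppp1r32 (0.969) and Ccdc134 (0.963), computed among 16890 other genes from log2 CPM (prior count 2). These are descriptions over 10 libraries that share their cell types and depth. Faim2, which encodes an inhibitor of Fas-mediated cell death, stood at 1001 and 457 CPM in OHCs (P22), 411 and 482 CPM in OHCs (P7), 70.6 and 32.3 CPM in cHCs, 4.01 and 2.41 CPM in IHCs and 0.355 and 0.345 CPM in SCs. Like Slc26a5 it lay in cHCs above SCs and IHCs and below all OHC libraries, but the 2 ages of OHCs overlapped. Bai2, an adhesion receptor gene, stood at 3.40 and 7.34 CPM in cHCs and at 60.0 and 39.5 CPM in OHCs (P22).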

How the data were processed

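Total RNA of handpicked cells was amplified by single primer isothermal amplification and sequenced as paired-end reads, and per the labels the authors trimmed, mapped to mm9 with STAR and BWA and counted reads with HTSeq. The authors deposited raw counts per gene symbol, without normalization, in 1 file per library. Summary lines that name no gene were left out (no-feature reads were 26.5 to 50.4% of the reads listed). Each sample was joined to the file whose name carries its title, checked against the study's table of CPM per library.

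Counts were fitted with edgeR 4.0.16 in R 4.3.3 (TMM, filterByExpr by cell type, 1 model of 10 libraries with cell type only, quasi-likelihood F-tests, 2-sided). The filter kept 16891 genes and 6 of the 10 members, the common dispersion was 1.12, and p values were adjusted over all genes tested (Benjamini-Hochberg, threshold 0.05). The SE of a log2 fold change was derived from it and the F statistic (fold change over the root of F). Alternatives were limma 3.58.1 (voom, the study's method), DESeq2 1.42.0, RLE factors, no filter, a block for the form of the title, fits of 2 cell types, leaving out each library, and the files as attached. Exon lengths came from GENCODE vM1 (mm9) and promoters from RefSeq. Figures used Python 3.11.15 and matplotlib 3.10.9. The procedure was tested on simulated data. The members, gene lists and tests were chosen with earlier results of these data known. Some genes of the lists are not reported here and were left out of the lists' counts and sums. All members and the called genes of the lists are named, with the 5 genes most like Slc26a5 by Pearson's r; Ocm, Chrna9, Chrna10, Atoh1, Idua and B4galnt1 serve as markers or overlapping genes. Depth was 15016129 to 40518766 counts, and 1 count was 0.0247 to 0.0666 CPM before scaling.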

Additional observations from a re-analysis of the deposited data

How the results depend on the processing

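Libraries of different cell types share no replicate number. A library each of SCs, cHCs and OHCs (P7) shares a form of title, and a block for this form was fitted in place of a replicate block. No called value changed sign under any alternative. With limma-voom the number of members called was 0 in cHCs against SCs and 2 in OHCs (P22) against OHCs (P7). With DESeq2 it was 2 in OHCs (P7) against SCs, 4 in OHCs (P22) against cHCs, 1 in OHCs (P22) against OHCs (P7) and 3 in IHCs against OHCs (P22). Without the filter it was 2 in each of the last 2. With only the 2 cell types compared it was 0 in cHCs against SCs and in OHCs (P7) against cHCs. With this block the joint test called 1 member in place of 2, and the number of members called changed in none of the 6 comparisons. Leaving out each library in turn gave 0 to 1 member in OHCs (P22) against OHCs (P7), the 1 being Slc26a1 without SC library 12, and 1 to 2 in the joint test, with 1 without the day 21 OHC (P22) library. The cause of these changes was not tested. With the files as attached to the records the number was 0 in all 6 comparisons and in the joint test, and no gene at all was called; Slc26a5 was then at a mean of 49.2 CPM in SCs. RLE factors changed no member's call.

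Counts of all genes called moved by over 1.5 times under several alternatives. In cHCs against SCs 311 genes became 1065 with limma-voom, 1771 with DESeq2, 952 without the filter, 198 with 2 cell types and 202 without cHC library 16. In OHCs (P7) against SCs 576 became 1172, 2683 and 1503 with the first 3. In OHCs (P7) against cHCs 58 became 378, 1123 and 558, and 26 to 159 without single libraries. In OHCs (P22) against cHCs 537 became 930, 2720 and 1591, 310 with 2 cell types, and 199 to 829 without single libraries, lowest without the day 21 OHC (P22) library. In OHCs (P22) against OHCs (P7) 93 became 1631 with DESeq2, 844 without the filter, 54 with RLE factors, 52 with the block, 23 with 2 cell types and 22 to 271 without single libraries. In IHCs against OHCs (P22) 247 became 2035 with DESeq2, 1156 without the filter, 117 with 2 cell types and 80 to 452 without single libraries. The joint count of 1320 became 2273, 4396 and 4067. With 2 libraries per cell type, the SEs of Slc26a6, Slc26a10 and Slc26a11 were 2.38 to 3.90 log2 units in the 6 comparisons, and a member at 0 may have up to 3 counts. Mean levels were recomputed for the other scaling, filter and files only, since the other alternatives leave them as they are.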

Other observations

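Slc26a8, a family member known from male germ cells, is not among the 10 genes above and was looked at after its values were seen. It had 215 counts (19.0 CPM) in the OHC (P22) library of day 21 and 1 count in that of day 22, and 119 counts (4.09 CPM) in the IHC library of day 75 and none in that of day 74. It also had 10 counts in cHC library 13, and no other library had more than 1. As for Slc26a4 and Slc26a7, the counts of Slc26a8 above the limit of 3 stood in 1 library of a cell type and not in the other.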
